A study of Mus musculus with 2 samples.

Results

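Transcripts annotated as targets of nonsense-mediated decay made up a sizeable share of their gene in 439 cases in adult mouse cerebellum. The members are transcripts that GENCODE M21 types as nonsense-mediated decay and that took at least 15% of their gene's TPM in both libraries, where TPM is a length-corrected relative abundance. Their genes are protein-coding, autosomal and at 5 TPM or more in both libraries, which are called eligible genes here. The members stand among 3433 nonsense-mediated decay transcripts of eligible genes, 4687 such transcripts of any gene and 129984 transcripts in all. They belong to 419 of the 2170 eligible genes that have such a transcript, a background of 19.3%. Of all 49643 transcripts of eligible genes, whatever their type, 30.2% took at least 15% in both libraries. The members were chosen by these shares and by the TPM of the gene, so both are given as a description.

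The single group is cerebellum of C57BL/6J mice, a common inbred laboratory strain, adult and 8 weeks old, pooled from males and females of mixed-sex litters. There are 2 libraries, which the submitters number as biological replicates 1 and 2. Both cite 1 donor record, so nothing given places them in separate animals, and the spread between them may be partly technical. The libraries were stranded and paired-end with reads of 101 bases, made from polyadenylated RNA over 200 nucleotides after removal of ribosomal RNA, with spike-in RNAs. They held 83109116 expected counts in replicate 1 and 84279926 in replicate 2, where an expected count is an estimated number of fragments. All 10 granule neuron markers, all 10 Purkinje neuron markers and all 10 astrocyte and Bergmann glia markers were above 30 TPM in both libraries, and 8 of 10 forebrain markers were under 5 TPM in both libraries. The design holds no contrast, so no p-value is given.

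Nonsense-mediated decay is the surveillance pathway that removes mRNAs whose translation stops too early. Splicing leaves an exon junction complex upstream of each junction, and a ribosome that stops well before the last of them leaves a complex on the mRNA that the helicase UPF1 and its partners UPF2, UPF3 and the SMG proteins use to trigger decay. Cells also use the pathway on purpose: many RNA-binding proteins splice a poison exon into their own transcripts and so hold down their level. The annotation type rests on the position of the stop codon and not on a measured decay, and a steady-state level holds synthesis and decay together, so a level cannot tell a stable transcript from one that is made and lost fast.

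The sequences of extra exons show what an early stop looks like. In 8 of the members described below, each with at least 300 expected counts on average and a junction found in no coding transcript, the stop codon lies in an internal exon that the most abundant coding transcript of the gene does not have. Each stretch below runs 5' to 3' on the transcript strand, from 15 bases of the exon before the extra exon to the stop codon, which is in capitals. Under each stands the coding transcript after the same 15 bases, with 30 bases of its next exon. They come from GENCODE M21 on mm10.
Arhgap23-204: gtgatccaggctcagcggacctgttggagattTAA
Arhgap23-201: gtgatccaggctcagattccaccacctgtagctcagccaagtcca
Atp5f1-203: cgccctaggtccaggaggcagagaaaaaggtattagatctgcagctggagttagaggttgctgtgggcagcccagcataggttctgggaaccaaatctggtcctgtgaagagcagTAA
Atp5f1-201: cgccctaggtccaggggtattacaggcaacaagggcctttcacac
Bicdl1-206: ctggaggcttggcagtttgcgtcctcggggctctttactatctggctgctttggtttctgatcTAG
Bicdl1-204: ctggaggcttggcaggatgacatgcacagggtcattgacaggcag
Cbarp-212: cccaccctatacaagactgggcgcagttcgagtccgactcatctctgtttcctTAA
Cbarp-215: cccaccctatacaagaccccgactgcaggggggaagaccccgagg
Nkiras1-201: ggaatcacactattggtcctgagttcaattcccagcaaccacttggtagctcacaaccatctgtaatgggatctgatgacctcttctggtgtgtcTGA
Nkiras1-202: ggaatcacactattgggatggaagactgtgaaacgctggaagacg
Srsf3-201: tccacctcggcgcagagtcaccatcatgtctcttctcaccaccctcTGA
Srsf3-202: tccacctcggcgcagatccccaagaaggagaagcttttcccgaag
Srsf6-201: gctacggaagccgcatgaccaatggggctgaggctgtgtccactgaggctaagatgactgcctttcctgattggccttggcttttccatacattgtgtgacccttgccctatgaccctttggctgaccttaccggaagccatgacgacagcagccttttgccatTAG
Srsf6-203: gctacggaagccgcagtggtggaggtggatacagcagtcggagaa
Yaf2-202: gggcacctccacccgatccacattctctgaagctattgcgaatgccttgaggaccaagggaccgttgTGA
Yaf2-201: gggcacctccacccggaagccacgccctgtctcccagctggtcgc
The shortest path to a stop was in Arhgap23-204, at 20 bases into an exon of 23 bases, and the longest was in Srsf6-201, at 152 bases into an exon of 268 bases. The extra exons lie at chr11:97491644-97491666 (plus strand, Arhgap23), chr3:105957870-105958036 (minus strand, Atp5f1), chr5:115651156-115651264 (minus strand, Bicdl1), chr10:80136690-80136743 (minus strand, Cbarp), chr14:18277844-18278101 (plus strand, Nkiras1), chr17:29039454-29039909 (plus strand, Srsf3), chr2:162932815-162933082 (plus strand, Srsf6) and chr15:93317539-93317608 (minus strand, Yaf2). Each is an exon of its transcript in M21 and has coding bases up to the stop. A stretch of 25 bases of the Nkiras1 exon also occurs on the same strand in transcripts of 301 other genes, whereas no stretch of that length of the Atp5f1, Bicdl1, Cbarp, Srsf3, Srsf6 or Yaf2 exon does. Among the 76 extra exons long enough for this count, 7 share a stretch with another gene. Only exact matches in annotated transcripts were searched, so copies elsewhere in the genome or with changed bases are not counted.

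Members differed from the coding transcript of their gene mainly by splicing at or before the stop. Another splice site set apart 140 members (31.9%), an exon left out 136 (31.0%), and a stop inside an extra internal exon 78 (17.8%). In 30 members the stop was that of the coding transcript, and what differs after it was not classed. In 15 an extra internal exon came before the stop, in 9 an intron was kept, and in 6 an intron was cut out of an exon. The gene had no coding transcript in the files for 19 members, and the other 6 fell into small classes or none. Only members were classed, so whether this mix is particular to them was not tested. Of the 136 members with an exon left out, 119 lacked exactly 1 exon, and the bases left out were not a multiple of 3 in 128 (94.1%). Whether the exons left out are coding was not checked, so a shift of the reading frame is not shown for each. Over the 4326 internal coding exons of the coding transcripts compared, 61.0% had a length that is not a multiple of 3. The type of the members rests on an early stop, and these exons are not chosen that way. The percentages are therefore not a like comparison. Extra exons with the stop were 19 to 1069 bases long with a median of 116, and 23 of the 78 had a length that is a multiple of 3.

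**Figure D1:**
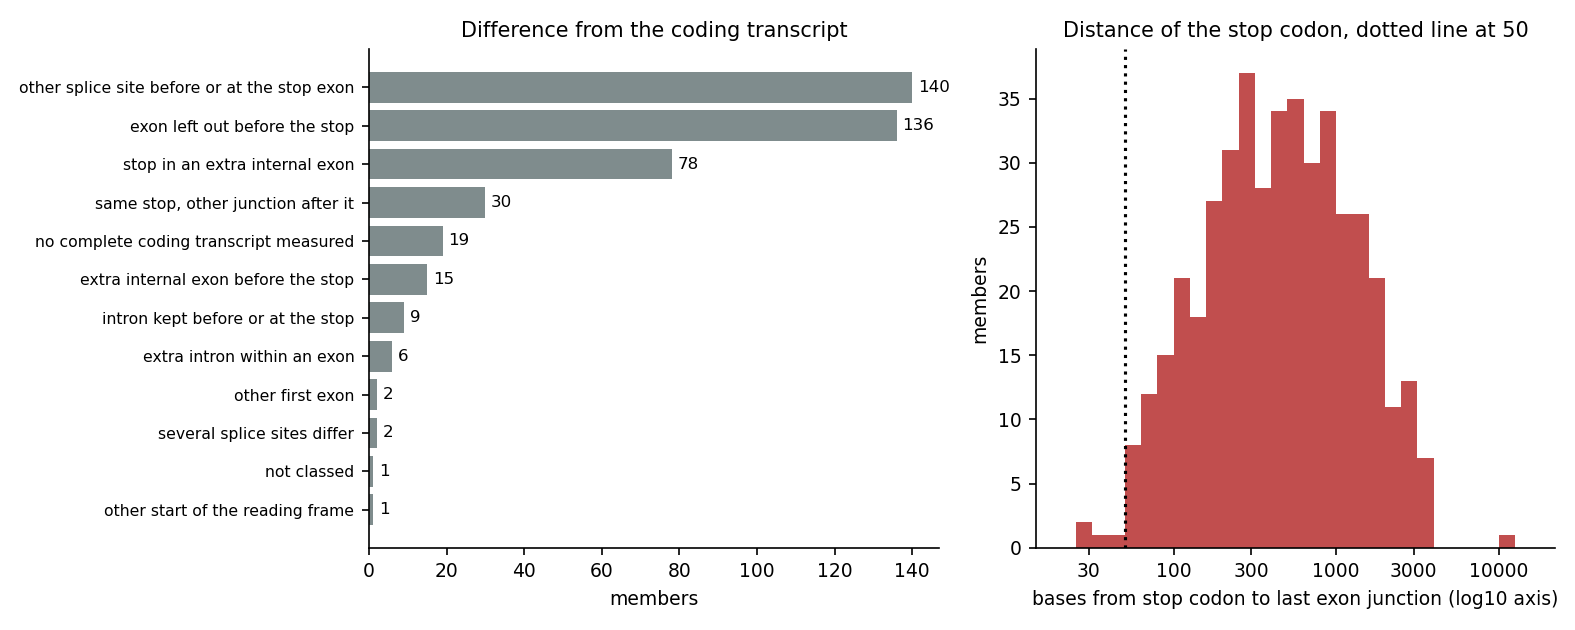
Left, number of members by the difference from the most abundant coding transcript of the gene. Right, number of members by the distance in bases from the stop codon to the last exon junction, on a log10 axis with a dotted line at 50 bases. Another splice site (140), an exon left out (136) and an extra exon with the stop (78) lead, and 435 members lie right of the line.

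The stop codon lay more than 50 bases before the last exon junction in 435 of the 439 members, the distance beyond which an exon junction complex is expected to stay behind. The 4 exceptions, named after their values were seen, were Mrrf-202 at 29 bases, Trp53bp1-218 at 31, Arhgap23-204 at 35 and Cyb5a-201 at 45. The 435 are 99.1% of members, beside 99.4% of the 2994 other nonsense-mediated decay transcripts of eligible genes. The annotation type rests on the stop position, so both percentages largely follow from the type. The median distance was 453 bases in members and 316 in those others. Members were longer in M21, with a median of 2070 bases and 1064 in the others. The best transcript support level, 1, was held by 53.5% of members and 28.0% of the others, and level 5, the weakest seen among members, by 24.1% of members and 42.4% of the others. Coding length had a median of 336 bases in members, which was a median of 28.5% of the coding transcript's. All members end in a stop codon, which was TGA in 53.8%, TAA in 23.9% and TAG in 22.3%, and the coding transcripts of eligible genes had 51.2%, 25.3% and 23.5%. The 2993 other nonsense-mediated decay transcripts with an annotated stop codon had 59.0%, 22.2% and 18.8%.

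Median share of the gene's TPM over the members was 27.9% in replicate 1 and 29.0% in replicate 2, and median level was 8.22 and 7.79 TPM. Members took 36.4% and 37.8% of the summed TPM of their genes. A member was the most abundant transcript of its gene in both libraries in 137 cases (31.2%), and in 1 library only in 52. Of the 420 members whose gene has a coding transcript in the files, 120 led in both. A mean share of 50% or more was reached by 74 members. Since TPM divides by length, a short transcript can have a large share of TPM from few fragments: 326 members also had at least 15% of the gene's expected counts in both libraries, and 98 had under 15% in both.

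At the threshold, the 5 members just inside were Pcnp-206 (15% in replicate 1 and 16.08% in replicate 2), Sra1-203 (15.07% and 16.41%), Helq-209 (15.65% and 15.08%), Dguok-204 (17.08% and 15.13%) and Snapin-205 (20.53% and 15.18%). The 5 transcripts just outside were Fam76b-204 (17.55% and 14.92%), Brd2-207 (16.70% and 14.84%), Parp11-209 (14.81% and 15.52%), Eif4g1-222 (14.80% and 18.90%) and Pcca-210 (17.75% and 14.77%). In all, 109 nonsense-mediated decay transcripts of eligible genes passed in 1 library only, these 5 among them.

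The libraries gave similar shares. The median difference between them was 2.51 percentage points over members and 1.71 over the 14532 other transcripts with the same minimum share, and 2.42 over the 2924 of these that are coding and lead in neither library. In TPM, 2 members were at least 2-fold apart (0.456%, on the scale of log2 of TPM + 0.1), Stt3a-202 at 6.38 TPM in replicate 1 and 2.81 in replicate 2 and Zfp688-206 at 1.93 and 4.26. The same held for 0.392% of the other transcripts with that share and for 14.1% of all transcripts of eligible genes above 0 TPM. Prmt6-202, from the gene of an arginine methyltransferase, had the widest gap in share, at 43.13% in replicate 1 and 77.06% in replicate 2. It was at 4.90 and 8.15 TPM, while the gene's leading coding transcript, Prmt6-203, was at 4.45 and 0.07 TPM. Only 3 exonic bases of Prmt6-202 are in no other transcript of the gene. The part of read assignment between transcripts in this gap was not tested.

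**Figure D2:**
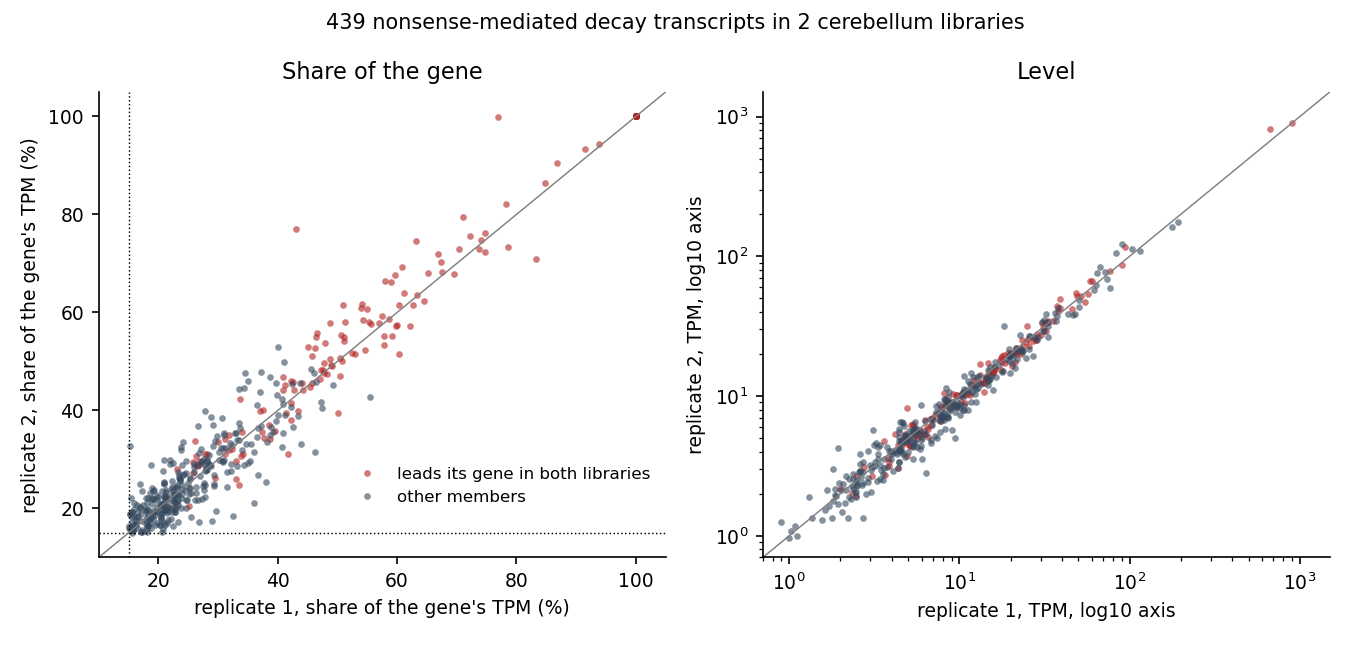
Each point is 1 of the 439 members, with its share of the gene's TPM in percent (left, dotted lines at the 15% minimum) or its TPM on log10 axes (right) in replicate 1 (x) and replicate 2 (y). The grey line marks equal values, and red points lead their gene in both libraries. Points follow the line, with a median gap of 2.51 percentage points in share.

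Ppia-201, from the gene of the prolyl isomerase cyclophilin A, was at 904.00 TPM in replicate 1 and 903.75 in replicate 2, against 496.94 and 519.61 for the gene's leading coding transcript. Mobp-204, from the gene of a basic protein of central myelin, was at 665.92 and 816.06 TPM, against 61.61 and 63.58. Ddx5-208, from the gene of an RNA helicase that acts in splicing, was at 193.79 and 177.32 TPM, against 222.80 and 206.23, and its stop follows from a kept intron. Both Ppia-201 and Mobp-204 stood above their coding transcript in each library, and Ddx5-208 stood below it in each.

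Prrt2-203, whose gene encodes a presynaptic membrane protein, was at 176.68 and 160.91 TPM, against 207.94 and 168.30. Trf-205, of transferrin, was at 114.77 and 109.37 TPM, against 249.88 and 284.80. Ttyh1-201, of a Tweety family membrane protein, was at 103.89 and 113.51 TPM, against 75.19 and 67.76. The remaining 4 of the highest 10 were Atp5f1-203 (subunit b of ATP synthase), Eef1b2-205 (a translation elongation factor subunit), Pabpn1-209 (the nuclear poly(A)-binding protein) and Hnrnpu-206, at 82.84 to 122.16 TPM. Ppia and Eef1b2 have many processed copies in the genome, so their counts are uncertain where reads match several copies.

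**Figure D3:**
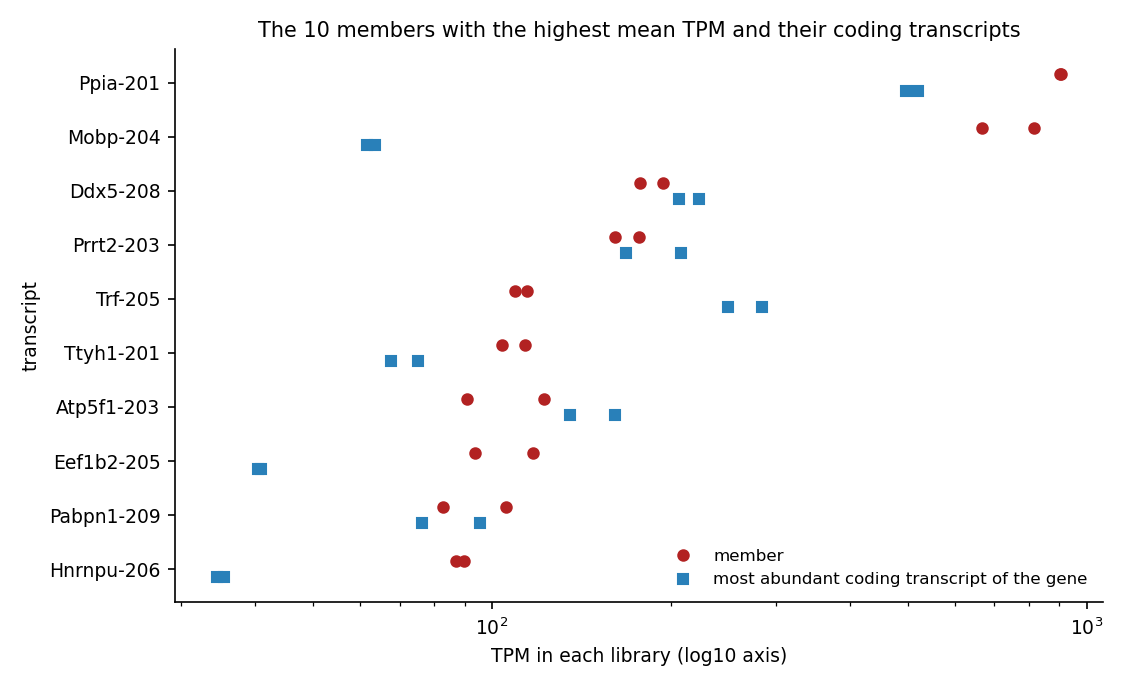
TPM on a log10 axis of the 10 members with the highest mean TPM (red circles) and of the most abundant coding transcript of the same gene (blue squares), 1 symbol for each of the 2 libraries. Mobp-204 lies at 665.92 and 816.06 TPM, more than any other member but Ppia-201, and Trf-205 lies below its coding transcript in both libraries.

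The highest shares stood where the files list no coding transcript. A share of 100% in both libraries was held by 13 members, each the sole transcript that the files list for its gene, so the members described here as highest by share are a pick among ties. Gabra2-201, of a GABA-A receptor subunit, was at 17.42 and 17.98 TPM, and Dnajc15-201, of a mitochondrial co-chaperone, at 57.19 and 54.02 TPM. Coding transcripts of Gabra2 and Dnajc15 are in M21 but not in the files, which use GENCODE M4. Over all members, 8 belong to genes of that kind, 11 to genes with no coding transcript in M21 either, and 15 are readthrough transcripts that join neighbouring genes. Where a coding transcript was quantified, Glo1-201, of the detoxifying enzyme glyoxalase 1, stood at 91.52% and 93.32% (77.13 and 78.21 TPM).

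Reads across splice junctions give a second measurement, which the choice of members did not use. Nothing in the labels or headers tells whether the same reads also entered the TPM files. The authors deposited a junction table on mm9 with the reads of replicates 1 and 2, whose numbers name no library. Of the 439 members, 332 have the same exon chain in Ensembl 65, the mm9 annotation, and 233 of these have a junction found in no other transcript of the gene. For each, the least read such junction was taken, and its share is its reads divided by them plus the competing reads, those of other junctions at the same splice site. Both sites were looked at and the one with more reads was used. Transcripts that do not splice at that site count in the gene's TPM but not in this share. The share of reads and the share of TPM therefore need not be equal. Intervals below are 95% Wilson intervals and, like limits from a count of 0, cover counting error only.

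Own junctions of members were read far less than those of coding transcripts with the same minimum share, but not less than those of retained-intron and processed transcripts. The least read own junction had at least 5 reads in each replicate in 103 of the 233 members. That is a rate of 44.2%, against 80.7% of the 6291 other transcripts with the same minimum. It had no read in either replicate in 65 (27.9%). Of these 65, 56 had no read over any own junction. The median share of reads over the 222 members with competing or own reads in both replicates was 4.10% in replicate 1 and 3.86% in replicate 2, where the median share of TPM of the 233 was 28.6%. At least 15% of reads in both replicates was reached by 74 members (33.3%), against 79.0% of the other transcripts, and under 5% in both by 108 (48.6%), against 13.7%. These others include leading coding transcripts, so a closer set is the coding transcripts with the same minimum that lead in neither library: at a median share of TPM of 25.3%, their median share of reads was 25.4% and 25.7% (1204 transcripts). Retained-intron and processed transcripts with the same minimum had 2.17% and 1.81% (401 transcripts). Of the closer coding set, 66.1% had at least 5 reads in each replicate, 17.2% had no read and 25.4% were under 5% in both. For retained-intron and processed transcripts these were 39.1%, 39.3% and 55.4%.

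Between members, the Spearman correlation of share of reads with share of TPM was 0.0196 (222 members that share the 2 replicates, given as a description). Members were chosen by share of TPM and no other set was correlated, so this cannot tell whether the shares are related. The median mean share of reads was 2.98% at 15 to 30% of TPM, 4.25% at 30 to 50% and higher above 50%. Members with no read rose too, at 25.8%, 28.2% and 35.3%. Coding transcripts that lead in neither library had medians of 21.2% and 36.6% in the lower 2 ranges. Members with the own junction at a mean share under 5% numbered 116, 5 to 15% 27, 15 to 30% 27, 30 to 50% 25 and above 50% 27. The median mean share was 7.09% over 119 members at support level 1 and 1.23% over 54 at level 5. By difference from the coding transcript, it was 28.6% for the same stop, 9.48% for a stop in an extra exon, 5.52% for another splice site and 2.08% for an exon left out. Junctions in no coding transcript, but possibly in other noncoding ones, widen the count to 308 members, with medians of 9.72% and 10.6%. The junction table and the TPM files use different builds and annotations, and the shares have different denominators, a splice site and a whole gene. The part of these in the gap was not tested.

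**Figure D4:**
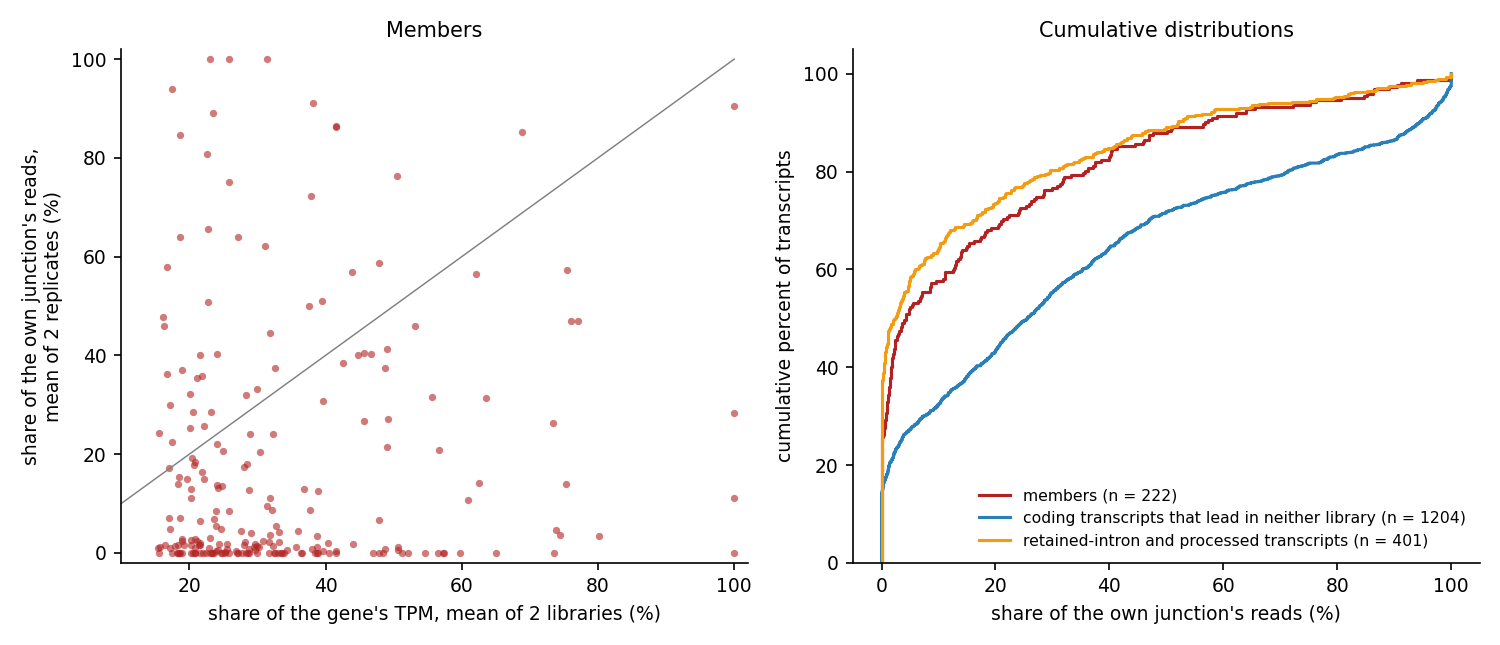
Left, each point is 1 of 222 members, with the share of the gene's TPM (x, percent, mean of the libraries) and the share of reads of its least read own junction (y, percent, mean of the replicates), and the grey line marks equal shares. Right, cumulative percent of transcripts by that share of reads for members, coding transcripts that lead in neither library and retained-intron and processed transcripts, all with at least 15% of TPM. Members stay above the coding transcripts, with 108 of 222 under 5% in both replicates.

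Some abundant members had no read over their own junctions. Atp5f1-203 held 34.98% and 46.05% of its gene's TPM (90.79 and 122.16 TPM), yet the junctions into and out of its extra exon had 0 reads in both replicates, against 1696 and 1421 competing reads. A count of 0 there allows a share of up to 0.177% and 0.211%. Erp29-202 likewise had 0 reads in both replicates against 1286 and 1131, and Mtch2-203 had 0 against 928 and 816, both named after their counts were seen as the next highest in competing reads. Serf2-205, which led its gene at 31.80% and 35.02%, had 0 reads against 371 and 409. Ttyh1-201 had 0 and 2 own reads, against 1163 and 1240 competing reads. Of the 65 members whose least read own junction had no read, 47 had at least 20 competing reads in each replicate, 37 have no exonic base of their own among the gene's transcripts and 17 have at least 100 such bases.

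Nkiras1-201, of a Ras-like inhibitor of NF-kappa B signalling, led its gene at 74.00% and 74.86%. Its sole own junction, at the extra exon with stretches found in 301 other genes, had 27 and 34 reads, against 747 and 901 competing reads, a share of 3.49% (2.41 to 5.03) and 3.64% (2.61 to 5.04). Ppia-201 had 4 own reads in each replicate, against 32 and 34. No own or competing read at all was found for Prrt2-203, Pabpn1-209 and Trf-205. Junction reads thus gave no share for these 3, and for Nkiras1-201 a far lower one than TPM.

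Other members were well covered. Yaf2-202, of a Polycomb-associated cofactor, had 339 and 396 reads over the less covered junction of the extra exon printed above, against 439 and 423, a share of 43.6% (40.1 to 47.1) and 48.4% (44.9 to 51.8), beside 51.18% and 55.05% of the gene's TPM. Smdt1-204, of a subunit of the mitochondrial calcium uniporter, had 370 and 408 reads against 2108 and 2170, a share of 14.9% and 15.8% beside 18.27% and 18.66% of TPM. Rnf114-203, of a ubiquitin ligase, had 257 and 196 against 239 and 268. In Yaf2 and Smdt1 the share of reads lay a little under the share of TPM, and in Rnf114-203, at 51.8% and 42.2% of reads beside 78.65% and 73.36% of TPM, further under it.

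In several members the share of reads, taken at a splice site, was above that of TPM, taken over the whole gene. Bicdl1-206, of a dynein adaptor, had 175 and 161 reads against 21 and 20, or 89.3% and 89.0%, beside 24.0% and 22.92% of TPM. Arhgap23-204 had 138 and 205 against 26 and 36. Slx1b-202, of a DNA repair nuclease subunit, had 235 and 251 against 84 and 67. Over all members, 25 had at least 50% of reads in both replicates.

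Splicing factor genes are the textbook place for poison exons. Members were found in 3 of the 8 SR and TRA2 genes with a nonsense-mediated decay transcript (37.5%), 4 of 15 hnRNP and related genes (26.7%) and 5 of 25 spliceosome and splicing kinase genes, beside the 19.3% of all such genes. Numbers are small, and nothing particular to these lists is read from them.

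Among SR proteins, which bind exonic enhancers, Srsf3-201 held 37.18% and 36.92% of the gene's TPM (37.00 and 34.24 TPM). It has no junction of its own, and the less covered junction of its extra exon, in no coding transcript but possibly in other noncoding ones, had 37 and 39 reads, against 5 and 7. Srsf6-201 held 21.66% and 21.40% (19.88 and 19.41 TPM), and its own junction had 120 and 126 reads, against 176 and 191, or 40.5% (35.1 to 46.2) and 39.7% (34.5 to 45.2). Srsf1-204, which has an extra intron cut out of an exon, held 21.12% and 21.65% (50.77 and 48.31 TPM), but its junction had 17 and 16 reads against 1040 and 992, or 1.61% and 1.59%. At these junctions, of which the Srsf3 one is not specific to the member, the share of reads was above the share of TPM in Srsf3 and Srsf6 and below it in Srsf1. Transcripts of this type in Srsf2, Srsf4, Srsf5, Srsf11 and Tra2b were not members, with at most 8.56% in either library.

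Of the kinase Clk1, which phosphorylates SR proteins, Clk1-210 held 19.02% and 22.10%, and its junction, in no coding transcript, took 15.6% (11.3 to 21.2) and 20.8% (15.8 to 26.8) of reads. Snrpa1-201, of a U2 snRNP protein, held 43.36% and 38.77% of TPM and 24.4% and 22.0% of reads at such a junction. At junctions of the same kind, Sf1-201, of the branch-point binding protein, held 21.36% and 23.85% of TPM and 6.76% and 9.55% of reads. Son-212, of a nuclear speckle scaffold, held 19.07% and 17.94% of TPM and, again at such a junction, 85.1% and 78.3% of reads. Hnrnpu-206 held 78.30% and 82.13% of a gene entry that the files keep apart from the M21 gene, and 3.43% and 3.27% of reads over its own junction. The other list members were Hnrnpu-208, Hnrnph3-204, Hnrnpll-203, Tia1-205 and the glial and neuronal regulator Qk-202, at 17.62% to 28.05% of TPM. The share of Hnrnpu-208 is likewise taken within that separate gene entry.

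**Figure D5:**
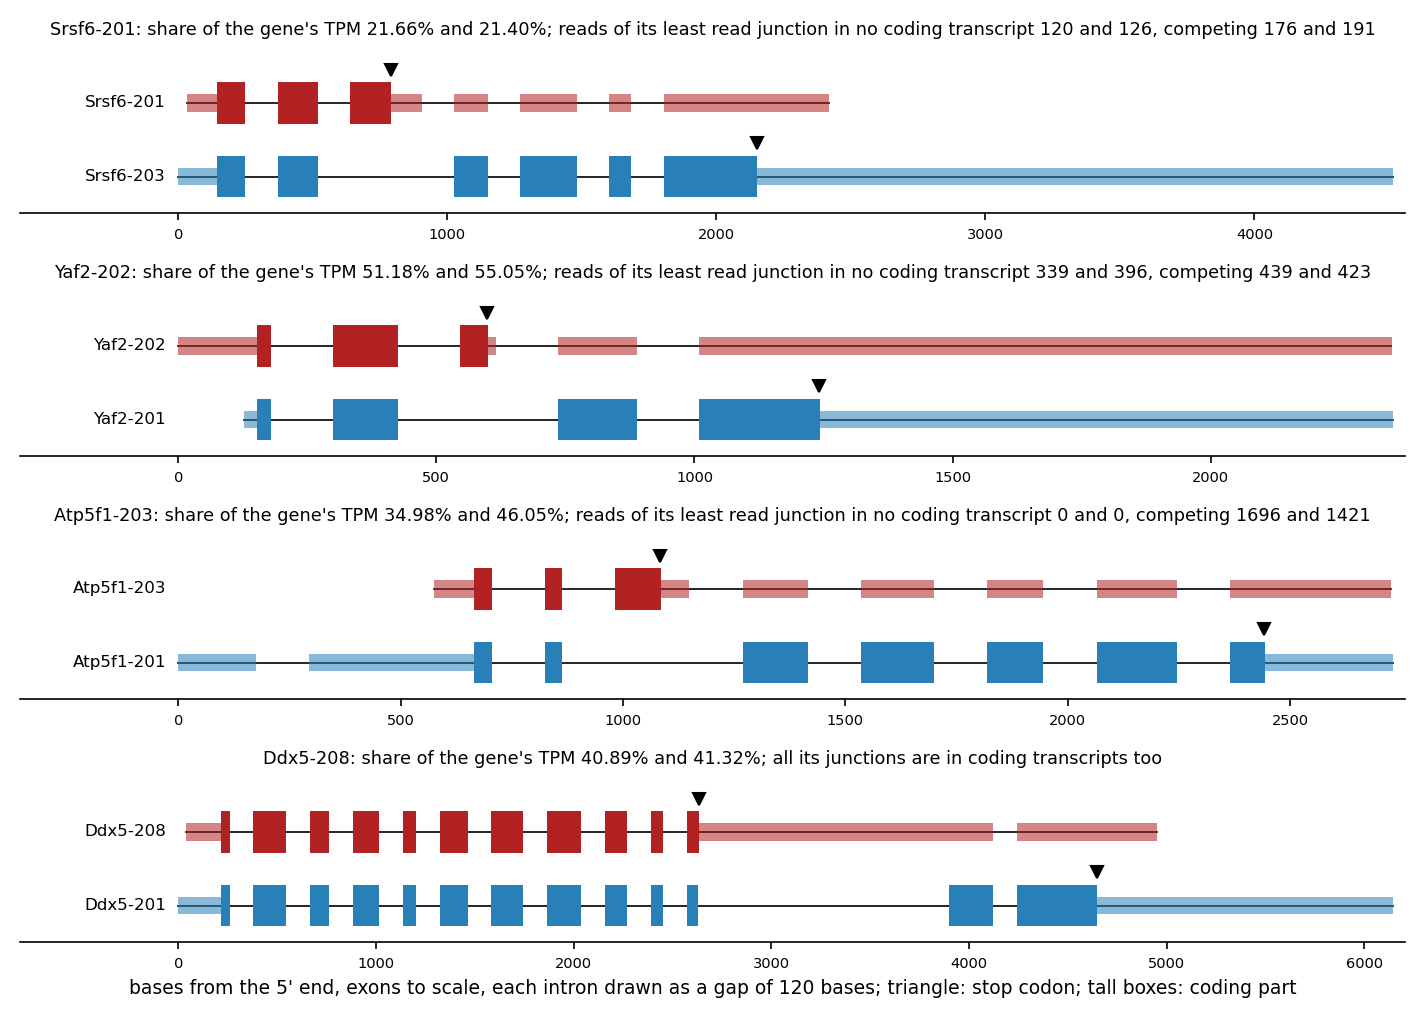
Exon models of 4 members (red, above) and the most abundant coding transcript of the gene (blue, below), 5' end left, exons to scale in bases and each intron drawn as a fixed gap. Tall boxes are coding, and triangles mark the stop codon. Srsf6-201, Yaf2-202 and Atp5f1-203 stop in an extra exon, with 120 and 126, 339 and 396, and 0 and 0 reads over its least read junction in no coding transcript, and Ddx5-208 stops in a kept intron.

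Ddx5-208 and Hnrnph3-204 have no junction outside coding transcripts, so junction reads cannot set them apart. Mobp-204 has no junction that is its own alone, but its least read junction in no coding transcript had 4898 and 5701 reads, against 8 and 6 competing reads, or 99.8% and 99.9%. It held 84.73% and 86.50% of the gene's TPM. That junction is not specific to Mobp-204, and transcripts that do not splice at its sites do not enter the share of reads. The shares of reads and of TPM are therefore not a like comparison here. Its stop is that of the coding transcript and lies 264 bases before the last exon junction of Mobp-204. Mobp and Trf were the members among 10 oligodendrocyte markers, of which 3 have a nonsense-mediated decay transcript, beside the 19.3% of all such genes. Of the Purkinje neuron markers 2 have such a transcript, of the granule neuron markers 1, and none of these held a member. With so few genes, nothing particular to a cell type is read from this. In bulk tissue, more cells of a type and more RNA per cell cannot be told apart. The oligodendrocyte markers, Mobp included, summed to 7467 TPM in replicate 1 and 8717 in replicate 2, while granule neuron markers summed to 3251 and 2652 TPM and Purkinje neuron markers to 3922 and 3368. Mobp-204 was higher in replicate 2, and the part of these differences in it was not tested.

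Cbarp-212, of a regulator of voltage-gated calcium channels, led its gene at 51.16% and 54.18%, and its junction in no coding transcript took 60.9% (56.9 to 64.8) and 61.9% (57.9 to 65.8) of reads. Rpl12-201, of a ribosomal protein with many processed copies, held 39.65% and 45.54% of TPM and 34.7% and 42.3% of reads, on 72 and 71 reads in all. It was the member among 9 ribosomal protein genes with such a transcript (11.1%). Atp5f1-203 was the member among 17 genes of oxidative phosphorylation (5.88%). Of the synaptic list, Gabra2 and Stx1a held members, 2 of 8 genes, and Stx1a-204 had 16.93% and 24.96% of TPM and, at a junction in no coding transcript, 10.3% and 27.0% of reads. None of the 10 aminoacyl-tRNA synthetase genes with such a transcript held one. Over all eligible genes with such a transcript the share is 19.3%. These lists are also small, and nothing particular to them is read from the counts.

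The decay machinery itself was expressed. All 12 listed factors were found, at 7.42 to 75.5 TPM over both libraries, with Upf1, the central helicase, at 26.33 TPM in replicate 1 and 23.34 in replicate 2, and Smg1, the kinase that phosphorylates it, at 47.97 and 41.21. Of 9 exon junction complex genes, the core helicase Eif4a3 was at 87.19 and 76.12 TPM and Rbm8a at 18.29 and 18.58. The endonuclease gene Smg6 was itself a member gene: Smg6-202 held 23.96% and 24.72% of TPM, with 2 and 1 reads over its own junction against 84 and 82.

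The Ensembl 65 transcript RPKM on mm9 is another estimate of the same quantity with an older annotation. Of 366 members with a value, 202 had at least 15% of the gene's summed RPKM in both replicates and 103 had under 15% in both, with medians of 23.3% and 22.7%. It differed from both other measures in some members: Rpl12-201 had 0.704% and 0.622% of RPKM, Cbarp-212 had 11.5% and 12.9%, and Arhgap23-204 had 6.11% and 8.87%. Atp5f1-203, without a read over its own junctions, had 51.3% and 63.2% of RPKM. The deposited exon RPKM adds no separate evidence, since in all 124369 exons shared by several transcripts it equals the sum over those transcripts within 0.1%.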

How the data were processed

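Polyadenylated RNA of cerebellum was sequenced in 2 libraries of 1 group. Per the file headers, the authors deposited for each transcript an expected count, a TPM value and its percent of the gene's TPM, on mm10 with GENCODE M4. The aligner is not given in the sources used here. They also deposited, on mm9, RPKM per Ensembl 65 transcript and exon and a read count per splice junction. Their replicate numbers name no library, and builds were joined by identifier only.

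Transcript types, exons, stops and sequences came from GENCODE M21 by identifier without version, which 101510 of 129984 transcripts matched. Of the members, 388 have the same length in both annotations, and 3 are listed under another gene in the files. The coding transcript compared is the most abundant one of the gene with a complete reading frame. Scripts in Python 3.11.15 with pandas 2.3.3 were tested on simulated data. Members, lists and added alternatives were chosen with earlier results of these data known. Named members are the 10 highest by TPM and by share, up to 15 that lead with 1000 counts or more, those in the gene lists, the 5 largest differences each way, the 5 nearest either side of the threshold and the 10 with most own junction reads. Alternatives covered the minimum share and gene level, the share by expected counts, the pseudocount, the junction minimum and each library left out. No test of a condition was possible with 1 group of 2 libraries.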

Additional observations from a re-analysis of the deposited data

How the results depend on the processing

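Of 56 alternatives run over the counts and medians, 49 stayed within 1.5 times the reported count or, for a median, within the spread between replicates. The number of members was 179 at a minimum share of 30%, and 329 to 634 at minima of 20% and 10%. Leaving out 1 library gave 497 to 502 members, of which 165 to 170 led their gene. With the share taken over expected counts, 392 transcripts passed, 326 of them members. With a pseudocount of 1 TPM, 0 members were 2-fold apart. At 20 reads in each replicate, 57 members had a covered own junction, and with junctions in no coding transcript, chosen after seeing the data, 160 did. These junctions also gave 120 members at 15% of reads or more, and a median share of reads of 10%, while the most read own junction gave 6.46%, all below the share of TPM. Leaving out 1 replicate moved the number at 15% of reads to 79 to 81, the median share of reads to 3.86 to 4.10%, the number at 15% of expected counts to 331 to 336 and that at 15% of RPKM to 229 to 236. The causes were not tested, beyond that fewer or more transcripts can pass a stricter or wider minimum. With 2 libraries, a difference between them has no further replicate check, and members with few reads at their splice sites have wide intervals.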
